A study of Rattus norvegicus with 8 samples.

Results

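The insulin-like growth factor (IGF) axis was described in the ventral prostate of TRAP rats, a transgenic line that develops prostate adenocarcinoma. It was described here as 10 genes: the ligands Igf1 and Igf2, the receptors Igf1r and Igf2r, and the binding proteins Igfbp2 to Igfbp7. Members were the array probes whose gene name in the scanner files was one of these symbols. That rule found 15 probes of 9 genes among 41012 probes on the array. Igfbp7 was found through its gene ID alone, because the design of the array carried an older locus name described as similar to mac25, and this added 1 probe.

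The arrays held 1 rat each. All 8 were heterozygous male TRAP rats of the SD strain, 15 weeks old when sampled. Control rats 102, 103, 104 and 106 were fed basal diet with plain tap water. Telmisartan rats 302, 303, 305 and 306 had telmisartan in their drinking water for 12 weeks from the age of 3 weeks. The drug blocks angiotensin II at its type 1 receptor. A label of these rats names a lower dose as well, but by the series' design text the arrays are of the 10 mg/kg/day group. The transgene is shared by both groups, so the controls are transgenic animals and not normal rats. In this line the transgene is the SV40 T antigen under the probasin promoter, which is active in prostate epithelium. Normal ventral prostate of male F344 rats aged 6 weeks was the reference in the Cy3 channel of every array, and the TRAP prostate was in Cy5. No source used here says if the reference was a single pool. Each value below is the log2 ratio of Cy5 over Cy3, so 0 means the level of the reference, and -1 means a signal 2-fold below it. The reference differs in strain, age and transgene at once and dyes were never swapped, so ratios over it were described and not tested.

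IGF1 and IGF2 are secreted peptides that bind the IGF1 receptor, a tyrosine kinase that drives growth and survival signalling through IRS proteins, PI3K and AKT. The IGF2 receptor, also the cation-independent mannose 6-phosphate receptor, takes up IGF2 for breakdown in lysosomes and does not signal growth in this way. Binding proteins hold the ligands in tissue fluid and can block or prolong their action, and proteases release the ligands from them. In the prostate, IGF1 is made mainly by stromal cells and acts on the epithelium.

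Sequences are shown for 2 sets of probes: those at the start of Igf1, which read unlike the other Igf1 probes, and the most alike probes of the binding proteins. The array has 4 Igf1 probes, and the weakest of them, A_44_P421502, matched the RefSeq sequence before the start of Igf1 over 60 of its 60 bases. Its neighbour A_44_P421499 matched over 57 of 60 bases from 11 bases before the start onwards. The 250 bases before the RefSeq start of Igf1 are chr7:24172282-24172531 on the plus strand of GRCr8, and the 71 capitals mark the bases that these 2 probes share with them.
Igf1 upstream: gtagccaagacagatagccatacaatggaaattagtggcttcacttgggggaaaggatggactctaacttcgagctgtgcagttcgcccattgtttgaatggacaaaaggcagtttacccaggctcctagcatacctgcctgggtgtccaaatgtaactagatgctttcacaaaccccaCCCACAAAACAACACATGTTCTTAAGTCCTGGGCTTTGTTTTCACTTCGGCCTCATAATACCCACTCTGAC
Binding protein genes are paralogues, so their probes were also compared with each other. The longest run shared by probes of different binding protein genes was 12 bases, between Igfbp3 and Igfbp6, and it is in capitals in these probes of 60 bases.
Igfbp3 A_44_P180127: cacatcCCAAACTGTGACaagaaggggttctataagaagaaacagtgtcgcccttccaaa
Igfbp6 A_44_P378799: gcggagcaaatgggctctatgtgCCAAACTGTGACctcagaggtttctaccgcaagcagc
The levels of these 2 genes ran in opposite directions between the slides. The probe that stands for Igfbp3 is another one, A_42_P627998, whose longest run shared with the Igfbp6 probe was 6 bases. Slide means of Igfbp3 were -0.34 and -1.13 on A_42_P627998, and -0.52 and -1.05 on A_44_P180127. Whether the shared run affects the reading of A_44_P180127 or of Igfbp6 was not tested.

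All 10 genes were measurable: the probe that stands for each was well above background in both channels on all 8 arrays, and none was saturated. Across the arrays, 64.7% to 76.8% of spots were well above background in Cy5 in control rats and 59.2% to 68.1% in treated rats, against 48.2% to 52.6% in the reference channel. The arrays lay on 2 slides, each with 2 control and 2 treated rats. As a check of the tissue, 5 measured genes of prostate secretion had a median log2 ratio of -6.56 in control rats, far below the normal gland, while 8 luminal epithelial genes had a median of 0.23. The medians of 6 skeletal muscle genes (-4.955) and 4 adipocyte genes (-2.83) were also far below the reference. The part of tissue make-up in the ratios over the reference was not tested. Slide 1 held Control 102 and 103 and Telmisartan 302 and 303, and slide 2 held the other 4. Control rats took positions 3 and 4 and treated rats positions 1 and 2 on both slides, so position and treatment cannot be told apart. Beyond the traits given above, labels tell the rats of a group apart only by their numbers. The p-values set the difference between groups against the spread of these 8 samples within their groups, with a variance moderated over all genes.

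No member of the IGF axis passed the test between treated and control rats. The differences ran from -0.26 for Igfbp3 to 0.15 for Igfbp6, and limma's adjusted p ran from 0.982 to 0.998. No member reached an unadjusted p below 0.05, which 4.82% of the 23089 genes tested did. Each member's groups overlapped, while those of 2.74% of all genes did not. Of the members 7 were lower and 3 higher in treated rats, where 50.5% of all genes were lower, and the members' median difference was -0.05 against -0.0019 for all genes. No gene on the array passed the adjusted threshold (0 of 23089, 0%), and 1113 had an unadjusted p below 0.05.

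Relative to the normal F344 prostate, Igf2 and its clearance receptor Igf2r had the lowest ratios of the axis, although Igf2r turned positive when the dye curve was left uncorrected. Igfbp4 and Igfbp5 had the highest. Over all 8 rats the mean log2 ratio was lowest for Igf2 at -1.54, then -1.06 for Igf2r, -0.87 for Igfbp2, -0.73 for Igfbp3, -0.51 for Igfbp6, -0.33 for Igf1r and -0.31 for Igfbp7. It was -0.07 for Igf1, 0.20 for Igfbp4 and 0.65 for Igfbp5. The SD over the 8 rats ran from 0.12 for Igf1r to 0.51 for Igfbp3. From Igf2r through Igfbp4, the means of neighbours in this sequence lay closer together than the larger of their SDs. Their order was not tested. Igf2, Igf1r, Igf2r, Igfbp2 and Igfbp6 lay below the reference in all 8 rats, which is 5 of 10 members against 25.7% of all genes. Igfbp5 alone of the members lay above it in all 8, as did 30.8% of all genes. Igf2 was the 1 member that was more than 2-fold below in every rat, as 3.3% of all genes were. It was also the 1 member more than 2-fold below in all 4 controls, as 4.19% of all genes were.

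**Figure D1:**
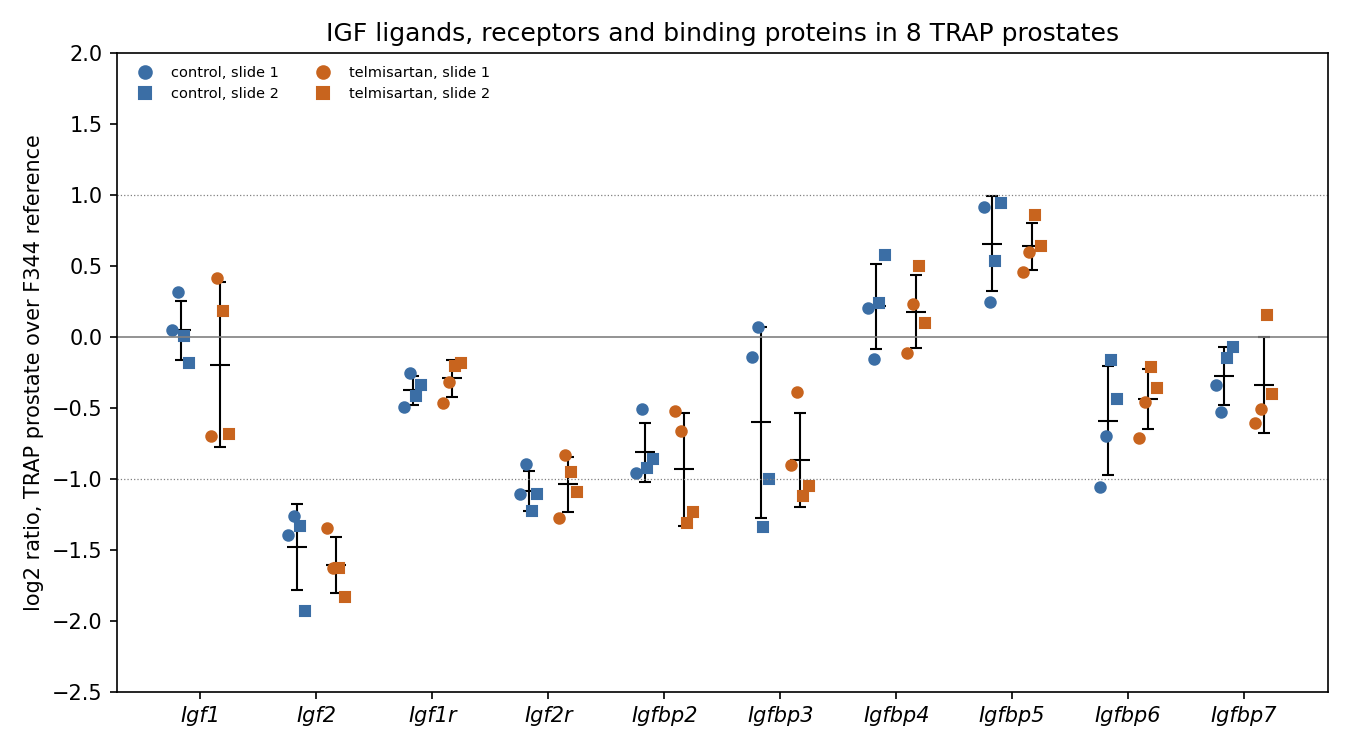
Log2 ratio of TRAP prostate over the F344 reference (y axis) for each of the 10 genes (x axis), with 1 point per rat, circles for slide 1 and squares for slide 2, and black bars for the mean ± SD of each group (n = 4). Igf2 lies below -1 in all 8 rats, Igfbp5 lies above 0 in all 8, and control and telmisartan points overlap for every gene.

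These levels rest on the correction of the dye curve. With median centring, which leaves the dependence of the ratio on brightness in place, the median of all genes moved from 0.06 to 0.67 in control rats. Igf2 was then the only member below 0, at -0.34, and Igf2r stood at 0.26. Relative to the median of all genes under that setting, Igf2 was at -1.01, Igf1r at -0.43, Igf2r at -0.41 and Igfbp2 at -0.39. In the same terms Igfbp3 and Igfbp6 were at -0.01, while Igfbp7 changed sign to 0.39 and Igf1 stood at 0.74. Igfbp4 and Igfbp5 stayed above that median, at 0.83 and 1.23. The scanner software's own ratios, which correct for the curve, placed Igf2 at -1.71 and Igf2r at -1.08.

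Igf1, the growth hormone-dependent ligand, was near the reference in the control rats on the probe that stands for it. Its log2 ratio was 0.05, 0.32, 0.01 and -0.19 in Control 102, 103, 104 and 106, a mean of 0.05 ± 0.21 (SD, n = 4). In Telmisartan 302, 303, 305 and 306 it was -0.70, 0.42, 0.19 and -0.68, a mean of -0.19 ± 0.58 (SD, n = 4). Telmisartan 302 and 306 were thus lower than every control rat, 303 was higher than every control rat, and the groups overlapped. The difference was -0.24 (SE 0.25, 95% interval -0.81 to 0.32, limma adjusted p = 0.982). Without Telmisartan 302 it was -0.08, without 306 also -0.08, and without Control 103 it was -0.15. Without Telmisartan 303 it was -0.45 and without 305 it was -0.37, and the adjusted p-values of these 5 fits ran from 0.791 to 1.0. The larger spread among the treated rats was not tested.

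Other probes of Igf1 bear on whether the low values belong to the gene or to 1 spot. Probe A_44_P126021 gave -0.03, 0.26, -0.11 and -0.29 in the control rats and -0.67, 0.42, 0.15 and -0.78 in the treated ones. Its order of the treated rats differed from that of A_44_P366723, which stands for the gene, only between 302 and 306. A further probe, A_44_P1044658, is described in the files as Igf1 exon 6 without carrying the gene's name, so it was no member. It read -0.67, -0.10, -0.47 and -0.70 in control rats and -1.08, -0.09, -0.02 and -0.99 in treated rats. Its values lay below the reference in all 8 rats, with a control mean of -0.49. Its treated minus control difference was -0.06, made of -0.20 on slide 1 and 0.09 on slide 2. All 3 bright probes placed Telmisartan 302 and 306 lowest of the 8 rats. The Cy5 signal of A_44_P366723 spanned 0.99 log2 units over the rats and the Cy3 signal 0.24, and the Cy5 range was the wider one for each of the 10 members.

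The 2 probes at the RefSeq start of Igf1, whose bases are in capitals above, showed no such pattern. A_44_P421502 was well above background in Cy5 on 4 of 8 arrays and in Cy3 on none, and A_44_P421499 on 6 arrays in Cy5 and 1 in Cy3. A_44_P421502 lay between -0.11 and 0.14 in all 8 rats, and A_44_P421499 between -0.23 and 0.23. On A_44_P421502 the 10 spots of an array had a median SD of 0.20, and the SD between rats, each the mean of its spots, was 0.08. With these probes averaged in, the treated minus control difference of Igf1 was -0.09.

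**Figure D2:**
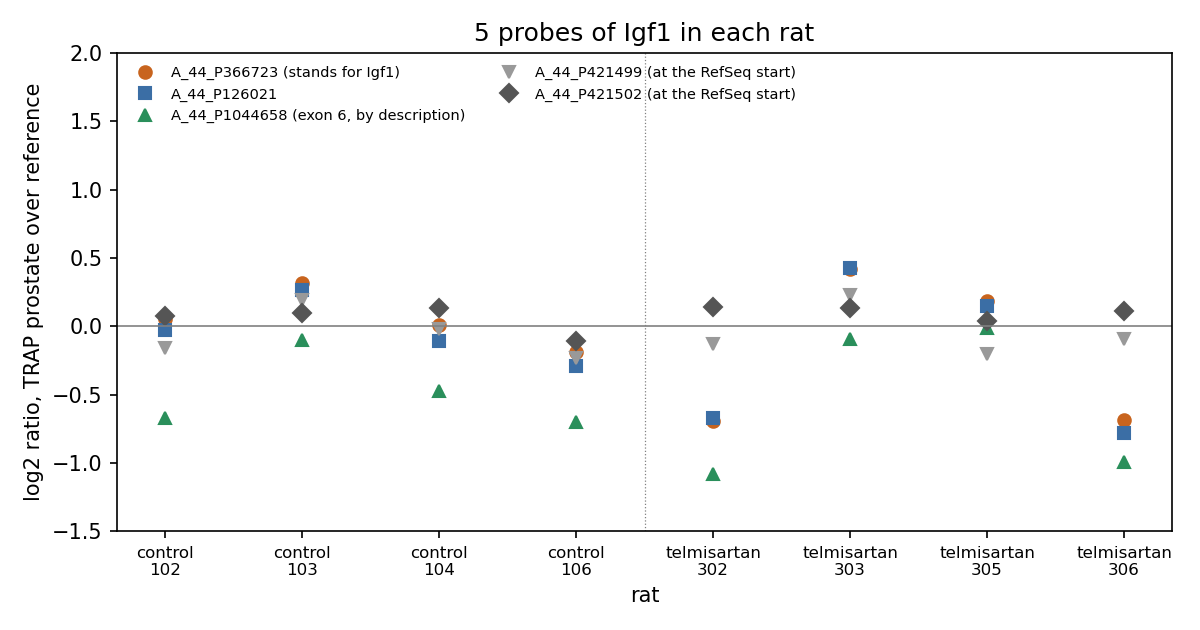
Log2 ratio of TRAP prostate over reference (y axis) of 5 Igf1 probes in each rat (x axis), with control rats left and telmisartan rats right of the dotted line. The 3 bright probes (circle, square, upward triangle) are lowest in Telmisartan 302 and 306, and the 2 dim probes at the RefSeq start (downward triangle, diamond) stay between -0.23 and 0.23.

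The genes most like Igf1 over the 8 rats, by Pearson's r across all genes with a symbol, were Cfi (r = 0.974), Orm1 (r = 0.949) and Plaat5 (r = 0.941). The 8 points share the reference and the normalization of their arrays, and the 3 genes were picked for their r out of 12459, so no p is given. Cfi encodes complement factor I, a protease that degrades complement C3b and C4b. It read 4.70, 5.04, 4.40 and 4.27 in control rats and 3.63, 4.84, 4.74 and 3.77 in treated rats, far above the reference in all 8. Orm1, the acute phase protein orosomucoid, read 0.73, 1.21, 0.62 and 0.49 in control rats and 0.10, 1.00, 0.68 and 0.15 in treated ones. Telmisartan 302 and 306 were lowest for both genes, as for Igf1. Plaat5 spanned only 0.05 to 0.24.

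Igf1 is a stromal transcript in this gland, and marker lists of stromal cells were set beside it. The mean of 10 fibroblast genes, all of them measured, ranged from -0.82 to -0.66 in control rats and from -1.06 to -0.49 in treated rats. It was -0.84 in Telmisartan 302 and -1.06 in 306, the lowest of the 8 rats, against -0.49 in 303 and -0.62 in 305. The mean of 4 measured adipocyte genes of 7 was likewise lowest in 302 (-3.71) and 306 (-3.53), with the other 6 rats between -3.29 and -2.94. Control 103 was next lowest on both lists, at -0.82 and -3.29, although its Igf1 was the highest of the 4 controls at 0.32. Of the list genes 0 passed the test in either list. The other lists of stromal and vessel cells did not place these 2 rats lowest. The mean of 8 measured smooth muscle genes of 10 was highest of the 8 rats in 302 (-0.93) and was -1.09 in 306, with Control 102 lowest at -1.56. The mean of 8 endothelial genes was -0.58 in 302 and -0.42 in 306, with Control 103 lowest at -0.59. In bulk tissue, fewer cells of a type and less RNA per cell cannot be told apart, and the part of these cells in the Igf1 pattern was not tested.

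Igf2, the fetal-type ligand that falls after birth in rodents, was the member farthest below the reference. It read -1.40, -1.26, -1.33 and -1.93 in the control rats, a mean of -1.48 ± 0.30 (SD, n = 4), or 2.79-fold below the reference. In the treated rats it read -1.34, -1.63, -1.63 and -1.83, a mean of -1.61 ± 0.20 (SD, n = 4). Control 106 was the lowest of all and Control 103 the highest, so all treated rats lay inside the control range. The difference was -0.13 (SE 0.16, 95% interval -0.49 to 0.24, limma adjusted p = 0.988), and it was -0.16 on slide 1 and -0.10 on slide 2. It was -0.28 without Control 106 and -0.21 without Telmisartan 302. It was -0.05 without Control 103, -0.08 without Control 104 and -0.05 without Telmisartan 306.

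Igf1r, the signalling receptor, had the smallest SD of the ratio among the 10 genes. Its probe reached a Cy5 intensity of at most 740, the lowest of the probes that stand for the members. Its Cy5 signal spanned 0.64 log2 units, wider than Igf2 (0.49) and Igf2r (0.61) and narrower than the other members. The ratios of Igf1r were -0.49, -0.25, -0.42 and -0.34 in control rats and -0.47, -0.32, -0.20 and -0.18 in treated rats. Only Telmisartan 305 and 306 lay above all controls. The difference was 0.08 (SE 0.10, 95% interval -0.14 to 0.31, adjusted p = 0.988), so that a treated level from 0.905 to 1.24 times that of control lies within the interval. The probe was spotted 10 times on each array, with a median SD between spots of 0.08 against 0.12 between rats. The value of a rat is the mean of its spots. Under the scanner software's ratios the control mean was -0.61 in place of -0.38.

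Igf2r, the clearance receptor for IGF2, was below the reference along with Igf2. It read -1.11, -0.89, -1.23 and -1.10 in control rats, a mean 2.12-fold below the reference, and -1.28, -0.83, -0.95 and -1.09 in treated rats. In 5 of the 8 rats, 3 of them controls, it was more than 2-fold below. The treated rats spanned the controls on both sides. The difference was 0.05 (SE 0.12, 95% interval -0.23 to 0.32, adjusted p = 0.997).

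Igfbp3, the main carrier of IGFs in serum and, in cultured prostate cells, a growth inhibitor, had the widest spread of the members. It read -0.14 and 0.07 in Control 102 and 103 but -1.33 and -0.999 in Control 104 and 106. In Telmisartan 302, 303, 305 and 306 it read -0.90, -0.39, -1.12 and -1.05. The 2 high controls were those on slide 1, and all 4 rats of slide 2 lay near or below -1. The overall difference was -0.26 (SE 0.30, 95% interval -0.94 to 0.41, adjusted p = 0.982). On slide 1 it was -0.61, with both treated rats below both controls, and on slide 2 it was 0.08. With the slide as a block the SE fell to 0.18 and the adjusted p was 0.846. Without Control 103 the difference was -0.04, and without Control 102 it was -0.11. It was -0.51 without Control 104, -0.40 without Control 106 and -0.42 without Telmisartan 303, with adjusted p-values of 0.988 to 1.0 in these 5 fits.

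A second Igfbp3 probe, the one printed above, gave the same ordering of the slides. A_44_P180127 read -0.29, -0.17, -1.17 and -0.94 in control rats and -1.10, -0.51, -1.10 and -1.0 in treated rats, a difference of -0.28 (SE 0.23). Its 10 spots per array had a median SD of 0.04, against an SD of 0.40 between rats. The spots share the labelling and hybridization of their array, so their SD covers neither. The Cy5 signal of the main probe spanned 1.54 log2 units over the rats and the Cy3 signal 0.42. Because no rat was measured on both slides, rat and slide cannot be told apart.

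**Figure D3:**
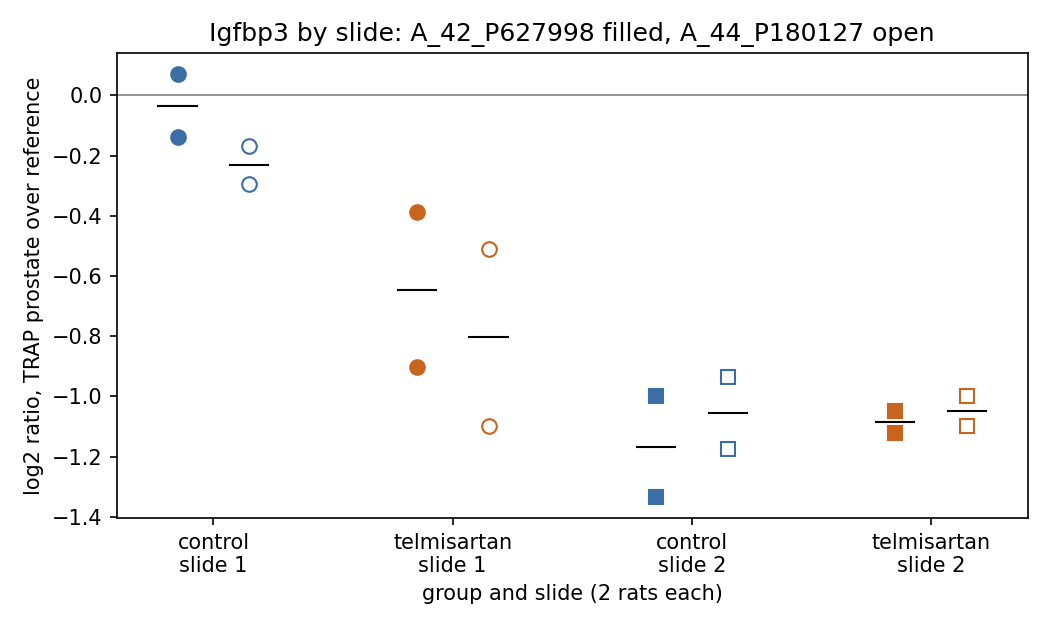
Log2 ratio of Igfbp3 over the reference (y axis) in the 2 rats of each group on each slide (x axis), with probe A_42_P627998 filled and A_44_P180127 open, and black lines for the mean of the 2 rats. Control rats of slide 1 are the highest on both probes, and on slide 2 control and telmisartan rats lie together near -1.

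Igfbp6, which binds IGF2 in preference to IGF1, ran the other way between the slides. It read -1.06 and -0.70 in Control 102 and 103 and -0.16 and -0.44 in Control 104 and 106. The treated values were -0.71, -0.46, -0.21 and -0.36. Slide 1 rats thus averaged -0.73 and slide 2 rats -0.29, where Igfbp3 averaged -0.34 and -1.13. The treated minus control difference of Igfbp6 was 0.15 (SE 0.19, 95% interval -0.27 to 0.57, adjusted p = 0.988), and it was 0.29 on slide 1 and 0.01 on slide 2. Without Control 102, the lowest rat, it was -0.0030.

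Igfbp2, a binding protein whose level rises in many prostate cancers in people, was below the reference here. The control rats read -0.96, -0.51, -0.93 and -0.86, and the treated rats -0.52, -0.66, -1.31 and -1.23. Telmisartan 305 and 306 were the lowest of the 8 rats and were the 2 treated rats of slide 2. The overall difference was -0.12 (SE 0.19, 95% interval -0.55 to 0.31, adjusted p = 0.993), made of 0.14 on slide 1 and -0.38 on slide 2. Taken by itself, slide 2 gave an unadjusted p of 0.0165 and an adjusted p of 0.831 for Igfbp2, and slide 1 gave 0.0412 and 1.0 for Igfbp3.

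Igfbp4 and Igfbp5 were the binding proteins at or above the reference. Igfbp4, an inhibitor of IGF action that is cut by the protease PAPP-A, read 0.20, -0.16, 0.24 and 0.58 in control rats and -0.11, 0.23, 0.50 and 0.10 in treated rats. Its difference was -0.04 (SE 0.17, 95% interval -0.42 to 0.35), with treated rats inside the control range. A dimmer Igfbp4 probe, A_44_P515317, gave 0.07 (SE 0.12) and was well above background in Cy3 on 3 of 8 arrays.

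Igfbp5, which binds to extracellular matrix and rises in the rodent prostate after castration, read 0.91, 0.24, 0.53 and 0.94 in control rats. The treated rats read 0.46, 0.60, 0.86 and 0.64, all inside the control range. The control mean was 1.58-fold above the reference, and the treated minus control difference was -0.02 (SE 0.17, 95% interval -0.39 to 0.35, adjusted p = 0.998). The dim probe A_44_P285534, above background in Cy3 on 2 arrays, put the control mean at 0.14 and did not follow the bright probe across the rats. In Control 102 it read -0.27 where the bright probe read 0.91.

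Igfbp7, a low-affinity IGF binder found in vessel walls, read -0.34, -0.53, -0.15 and -0.07 in control rats and -0.61, -0.50, 0.16 and -0.40 in treated rats. Telmisartan 305 was the 1 rat above the reference, and the groups overlapped. The difference was -0.06 (SE 0.17, 95% interval -0.45 to 0.32, adjusted p = 0.997). Its slide means were -0.50 and -0.12, and the mean of 8 endothelial genes was between -0.59 and -0.16 in control rats and between -0.58 and -0.17 in treated rats. Whether endothelial content had a part in the values was not tested.

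Between the slides, 6 of the 10 members had differences of opposite sign: Igf1r, Igf2r, Igfbp2, Igfbp3, Igfbp4 and Igfbp5. The share of all genes with opposite signs was not counted, so the 6 cannot be read as particular to the IGF axis. Igf1, Igf2 and Igfbp7 were lower in treated rats on both slides, and Igfbp6 was higher on both. A change of 2-fold lay outside the 95% interval of all 10 members. A change of 1.5-fold lay inside it in the lower direction for Igf1, whose interval ran from 0.571 to 1.25 times control, and for Igfbp3, from 0.52 to 1.33 times control.

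**Figure D4:**
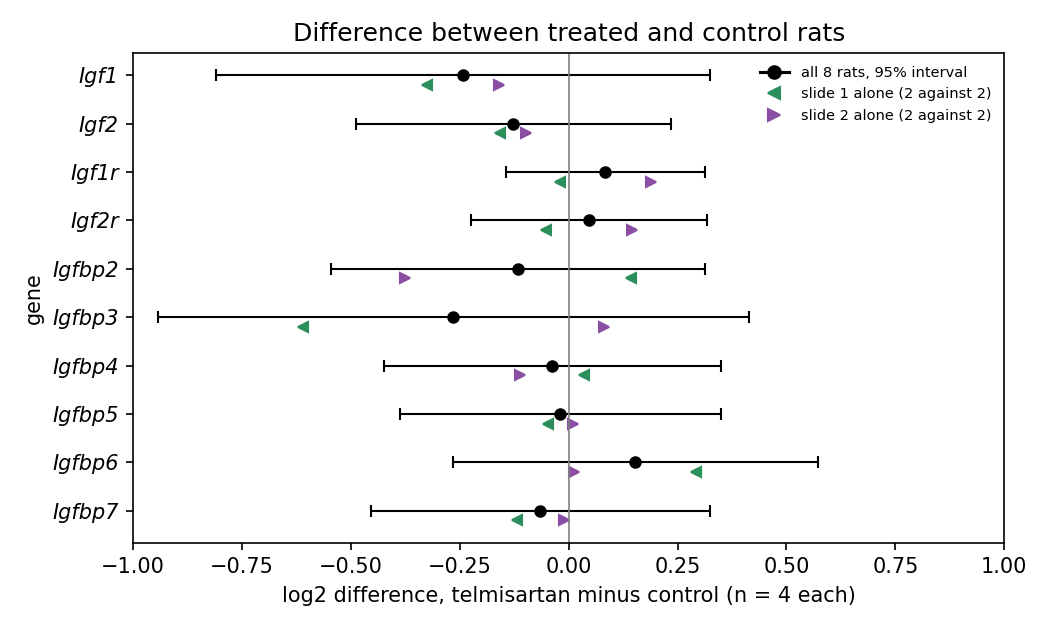
Telmisartan minus control difference in log2 ratio (x axis) of each gene (y axis), as a black point with its 95% interval over all 8 rats and as coloured triangles for each slide (2 rats against 2). All 10 intervals include 0, that of Igfbp3 is the widest from -0.94 to 0.41, and the triangles lie on opposite sides of 0 for 6 genes.

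Some genes of the family lie side by side. In the RefSeq gene order of GRCr8, Igfbp2 and Igfbp5 are adjacent protein-coding genes on chromosome 9, and Igfbp1 and Igfbp3 on chromosome 14. Igfbp2 averaged -0.81 in control rats and Igfbp5 0.66. Igfbp1 averaged -0.23 and Igfbp3 -0.60, and Igfbp1 spanned -0.38 to -0.09 in the 4 control rats where Igfbp3 spanned -1.33 to 0.07.

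Genes that set how much IGF is made and released were taken from a list of 16, of which 13 had a probe and 9 were tested. None passed the test, 3 were higher and 6 lower in treated rats, and the median difference was -0.04. Adam28, a metalloprotease that can cut IGFBP3 in people, read 1.79, 1.70, 1.62 and 1.79 in control rats and 2.36, 1.94, 2.30 and 2.31 in treated rats. Its groups did not overlap, and the difference was 0.50 (SE 0.11, unadjusted p = 0.00141), but limma's adjusted p was 0.902, and no gene of the list fell below 0.277 under any alternative. The reference was not well above background for Adam28 on any array, and the Cy5 signal after loess differed by 0.51. Igfbp1, the short-lived binding protein lowered by insulin, differed by 0.23 (SE 0.11, adjusted p = 0.982), and its Cy3 signal spanned 0.83 log2 units against 0.57 for Cy5.

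Igf2bp2 and Igf2bp3, which bind Igf2 mRNA, differed by -0.29 (SE 0.15) and -0.19 (SE 0.14), both with adjusted p = 0.982. For Igf2bp3 the reference was not well above background on any array. Its Cy5 signal was 0.17 higher in treated rats and its Cy3 signal 0.37 higher. Ghr, the growth hormone receptor, read -1.51, -0.40, -1.36 and -1.25 in control rats and -1.55, -1.20, -1.34 and -1.37 in treated rats. It was more than 2-fold below the reference in 7 of 8 rats, Control 103 being the exception, and its difference was -0.23 (SE 0.22). Stc1, which encodes stanniocalcin 1, an inhibitor of PAPP-A, was more than 2-fold below the reference in all 8 rats, with a control mean of -1.37 and a difference of -0.04 (SE 0.10). Pappa itself averaged -0.89 in control rats and differed by -0.03 (SE 0.12). Igfals, which encodes the acid-labile subunit of the serum IGF complex, differed by 0.03 (SE 0.17) and was not well above background in the reference on any array.

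Downstream of the receptor, 25 of 30 listed signalling genes were tested and none passed. Of these 15 were higher and 10 lower, with a median difference of 0.04 and a range from -0.15 to 0.17. Among those with the smallest p were Rptor, the raptor subunit of mTORC1, with a difference of 0.17 (SE 0.12), the adaptor Grb2 at -0.15 (SE 0.13) and the transcription factor Foxo3 at -0.09 (SE 0.11). The reference was well above background on 1 array for Rptor and on none for Foxo3. The Cy5 signal of Foxo3 was 0.04 higher in treated rats and its Cy3 signal 0.13 higher. Irs2, a substrate of the IGF1 and insulin receptors, was the highest of the list over the reference. It read 0.83, 1.27, 0.88 and 0.99 in control rats and 0.82, 1.03, 0.93 and 0.97 in treated rats, a difference of -0.06 (SE 0.12). The other substrate, Irs1, was not well above background on any array and was not tested. Shc1, an adaptor of the same receptors, averaged 0.70 in control rats, and the lowest of the list were the kinase Rps6kb1 at -0.67 and the receptor-binding inhibitor Grb10 at -0.58. Insr, the insulin receptor, differed by -0.05 (SE 0.09), with the reference not well above background on any array.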

How the data were processed

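Ventral prostate RNA of 4 control and 4 telmisartan rats was measured on 8 Agilent 2-colour arrays. The authors deposited, per the file headers, spot intensities and local background intensities from Agilent Feature Extraction 9.1, uncorrected, and a log10 ratio that the software had background-subtracted and dye-normalized. The deposited series matrix holds the same log10 ratios, within 0.005, and other values in the files were 0 or 1 flags. The deposited intensities were corrected with normexp (offset 50) and loess within arrays in limma 3.58.1 (R 4.3.3, version 1.17.8 of data.table), giving log2 ratios. Spots with outlier flags were dropped and spots of a probe averaged. Differences and ranges of the Cy5 and Cy3 signals of a gene were taken from the 2 channels after loess, in log2. These signals had no normalization between arrays, and loess uses both channels. The alternative with Cy5 alone was quantile normalized between arrays instead. Probes were kept if 4 or more of the 8 arrays read them well above background in Cy5 and all 8 had a value, and the brightest probe stood for a gene. Groups were compared with lmFit and eBayes, two-sided, with Benjamini-Hochberg adjustment over 23089 genes and a threshold of 0.05. The fit was checked on simulated data. Names followed RefSeq tables of GRCr8, and promoter sequence and gene order came from the same source. Of 41012 probes, 10735 matched by accession, 5577 by symbol, 3730 by older symbol and 1928 by gene ID, and 19042 kept the name in the file. Precision is limited by the number of arrays.

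Named genes were all members with every probe. From each pathway list they were the 4 genes with the smallest p, the 2 highest and the 2 lowest over the reference. Insr, Irs1, Irs2, Igfbp1, Igfals, Ghr, Pappa and Stc1 were always named, as were the 3 genes most like Igf1, which was also the member with the smallest p. A gene that this rule takes is not reported here. Members, lists and tests were chosen with earlier results of these data known. Alternatives covered background correction, normalization, channel, filter, probe choice, slide, variance model, array weights and each rat left out.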

Additional observations from a re-analysis of the deposited data

Results flagged for a closer look

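Of 100 groups of 4 rats examined for the genes, probes and lists named here, 6 held a rat whose gap to its nearest neighbour took up nearly the whole range of the group. Chance gives about 1 in 20 such groups. Telmisartan 303 read -0.51 on the Igfbp3 probe A_44_P180127, with the next treated rat at -1.0, and 1.94 for Adam28, with the next at 2.30. Control 102 read -0.27 on the dim Igfbp5 probe A_44_P285534, with the next control at 0.25. Control 104 read -1.14 for Pappa, with the next at -0.82. Control 102 averaged -0.0983 over the list of IGF availability and production, with the next at -0.25. Telmisartan 302 averaged 0.012 over the signalling list, with the next at 0.07.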

How the results depend on the processing

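No member and no pathway gene passed the adjusted threshold under any of the 23 alternatives, and the smallest adjusted p of a member was 0.523. Over all genes the number of calls was 0, and 0 to 1 when 1 rat was left out. The single calls were probe A_44_P178671 without Control 102 and probe A_44_P277176 without Telmisartan 303, both chosen after their values were seen. Genes at an unadjusted p below 0.05 numbered 1113, and 1950 with no filter, 466 on slide 1 alone, 2580 with array weights, and 667 to 2009 with 1 rat left out. They split into 635 higher and 478 lower, and into 768 and 311 in the Cy5 channel alone. Members at that p numbered 1 on slide 1 alone and 1 on slide 2 alone. Of all genes, 466 of 23215 were at that p on slide 1 alone and 1372 of 23161 on slide 2 alone. The count of members more than 2-fold below the reference in all controls was 1, but 0 with median centring, 2 on slide 2 alone and 1 to 2 with 1 rat left out (2 without Control 103). Igf2r stood at 0.26 over the reference with median centring. Member differences changed sign in 24 cases, among them Igfbp3, whose difference of -0.26 was the largest of the 10, and the cause was not tested. Igfbp5 was 0.0026 with the software's ratios, 0.0034 with the series matrix, 0.0602 with median centring and 0.0104 on slide 2. Igfbp4 was 0.0530 with median centring, 0.0167 as the mean of its probes and 0.0357 on slide 1. Igfbp7 was 0.0522 with median centring and 0.0701 in Cy5 alone. Slide 1 alone gave -0.0204 for Igf1r, -0.0515 for Igf2r and 0.143 for Igfbp2, and slide 2 alone 0.0820 for Igfbp3. With 1 rat left out the ranges were -0.162 to 0.0826 for Igfbp4, -0.157 to 0.0755 for Igfbp5, -0.0030 to 0.296 for Igfbp6, -0.230 to 0.0243 for Igfbp7, -0.0232 to 0.127 for Igf2r and -0.254 to 0.0099 for Igfbp2. Without a change of sign they were -0.447 to -0.0752 for Igf1, -0.276 to -0.0533 for Igf2 and -0.509 to -0.0409 for Igfbp3. No paired analysis was possible because the rat numbers of the groups are not shared. Igf1 and Igf2 stayed lower in treated rats under all 23 alternatives, but several of these cannot move the difference. The filters, the slide as a block and the change of variance model left it at -0.24 for Igf1 and -0.13 for Igf2. Depth of signal limited the dim probes of Igf1, Igfbp4 and Igfbp5, which were seldom above background in the reference.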

Other observations

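The other cell type lists gave these values beside the IGF axis. Of 8 T cell genes all 8 were lower in treated rats, with a median difference of -0.64, and of 8 macrophage genes 7 were lower, with a median of -0.40. Of all genes tested 50.5% were lower. Genes of a list were read in the same 8 rats, so they are not replicates. Of 6 measured basal epithelial genes all 6 were higher (median 0.21), and of 8 smooth muscle genes 6 were higher (median 0.17). For these 4 lists the mean per rat overlapped between the groups. It was 0.63 to 2.22 in control and 0.29 to 1.93 in treated rats for T cells, and 1.08 to 1.79 and 0.64 to 1.70 for macrophages. For basal genes it was -1.35 to -0.46 and -0.73 to -0.26, and for smooth muscle -1.56 to -1.01 and -1.23 to -0.93. The medians were -0.04 for 8 luminal epithelial genes, -0.05 for 8 endothelial genes, 0.01 for 10 fibroblast genes, -0.26 for 4 adipocyte genes, -0.10 for 6 skeletal muscle genes and -0.03 for 5 secretory genes. No gene of these lists passed the adjusted threshold.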
